A study of Homo sapiens with 2 samples.

Results

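The 48 genes described here encode the machinery that copies DNA and divides the cell, in CARM1 wild-type (parental) and CARM1 knockout (CARM1 KO) A1847 cells. They were taken by symbol from a list set by function and found among the 57736 Ensembl genes of the RNA-Seq count table. A total of 28 formed an S-phase group, which holds the factors that license origins, build the replication fork, supply nucleotides and drive entry into S phase, and 20 formed a mitotic group, which holds the cyclins, kinases, checkpoint proteins and spindle proteins of G2 and M phase. All 48 were measured well above the minimum of 10 reads in both libraries together, the least covered being CDC25C with 887. A1847 is a human epithelial ovarian cancer cell line with high CARM1, an arginine methyltransferase. The CARM1 KO cells are a clone made with a lentiviral CRISPR vector carrying a CARM1 guide RNA, and the labels name no drug or other treatment for either group. There was 1 library per group, so no difference below has a replicate check. Differences between the clone and the population it came from cannot be told apart from the effect of losing CARM1.

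The CARM1 KO library had 32300391 reads and the parental library 30741953. Folds are ratios of reads after scaling of the libraries with edgeR's TMM method, and each interval in brackets is an exact 95% binomial interval that covers counting error only. Pairs of read numbers give parental cells first and CARM1 KO cells after them, and for genes that were not called the ratio of CARM1 KO to parental cells is given. A gene is called higher or lower where its fold is over 1.5 and that interval leaves out equal levels. The targeted gene, CARM1, went from 975 to 380 reads, a 2.63-fold drop (2.33 to 2.97), so reads of it remained. Reads count RNA and not protein, and the study followed CARM1 protein in parental and knockout cells by immunoblot. The libraries differed widely, with 25.6% of the 18563 genes tested higher and 24.8% lower in CARM1 KO cells. This reached the markers of cell type. Of 9 fibroblast markers, 8 could be tested and 6 were lower in CARM1 KO cells, with the summed level of the list at 1499 RPM (reads relative to the size of the scaled library) in parental and 21.7 in CARM1 KO cells, and COL1A2, a fibrillar collagen gene, had 16732 and 3 reads. DCN was at 0 reads in CARM1 KO cells, while COL1A1 was higher, with 131 and 537 reads, and PDGFRB was not called, with 132 and 142 reads. Of 11 epithelial markers, 8 could be tested and 7 were higher, with a summed level of 1406 and 4714 RPM, and KRT19 was lower, with 45 and 0 reads. Of 6 immune markers 3 of 4 tested were higher, at 13.7 and 52.7 RPM in sum, with CD3E at 0 reads in both libraries. Of the endothelial markers, PECAM1 was not matched, and the other 3 had 11 and 12 reads in sum, with CDH5 at 0 in both. The part of these marker changes in the results below was not tested.

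A cell copies its genome once per division. In G1 phase the origin recognition complex (ORC), with CDC6 and CDT1, loads the ring-shaped MCM helicase onto DNA, and geminin then blocks CDT1 so that no origin is licensed again. Cyclin E with CDK2 starts S phase, CDC45 and the GINS complex activate the helicase, and polymerases follow with the PCNA clamp. Cyclin B with CDK1 later starts mitosis, in which Polo and Aurora kinases, kinesin motors and the spindle checkpoint move and count the chromosomes. Genes of the first set are known targets of E2F factors, and those of the second are known targets of the DREAM, MYBL2 and FOXM1 complexes, which act at a promoter element called CHR.

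The S-phase and mitotic groups differed in the words their promoters held, which are shown before the values. Windows from 250 bases before to 50 bases after annotated starts were taken from RefSeq (GRCh38.p14), in which 41 of the 48 genes had 53 windows, some of them overlapping windows of 1 gene. MCM4, MCM5, CCNE2, CDK2, AURKA, TTK and TPX2 had none. Each window was searched on both strands for the E2F words TTTCCCGC and TTTCGCGC and TTTGCCGC and TTTGGCGC, for the CHR words TTTGAA and TTCGAA, and for the NF-Y word CCAAT. Matches of different elements overlapped in 2 of the 53 windows. An E2F word was present in 15 of 31 windows (48.4%) of the S-phase group and in 3 of 22 windows (13.6%) of the mitotic group. It was present in 3.31% of all 35116 windows and in 5.01% of the windows of protein-coding genes with at least 100 reads. A CHR word was present in 2 of 31 windows (6.45%) of the S-phase group and in 14 of 22 windows (63.6%) of the mitotic group. All windows had it in 16.4%, and those of protein-coding genes with at least 100 reads in 11.9%. CCAAT was common to both groups, at 74.2% and 81.8% of windows. All windows had CCAAT in 34.6%, and those of protein-coding genes with at least 100 reads in 35.0%. A match is a description of these letters and not of a bound factor.

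The E2F word is in capitals in these 30-base stretches, which come from the S-phase genes that hold it and differed most between the libraries. Of these, CDC25A was lower and GMNN higher in CARM1 KO cells, while the other genes shown were not called. The capitals are the word itself in CDC25A and GMNN and the reverse complement of a word in PCNA, GINS2, CDT1 and GINS1.
CDC25A (chr3:48188443-48188472, minus strand): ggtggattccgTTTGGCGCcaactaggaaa
GMNN (chr6:24775322-24775351, plus strand): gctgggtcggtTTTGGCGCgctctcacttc
PCNA (chr20:5126663-5126692, minus strand): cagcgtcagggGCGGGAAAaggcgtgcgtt
GINS2 (chr16:85688967-85688996, minus strand): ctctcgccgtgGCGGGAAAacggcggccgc
CDT1 (chr16:88803743-88803772, plus strand): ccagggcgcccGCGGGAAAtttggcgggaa
GINS1 (chr20:25407667-25407696, plus strand): agctttgttcgGCGCCAAAgcgcggagcgg

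The CHR word is in capitals in the next stretches, from the mitotic genes that hold it and differed most. CENPF, PLK1 and KIF11 were lower and NUSAP1 higher in CARM1 KO cells, so a CHR word stood beside the starts of genes with opposite calls. The capitals in KIF11 are the reverse complement of TTTGAA, and those of the other genes are TTTGAA itself.
CENPF (chr1:214603215-214603244, plus strand): ccggtggcggctgcgggcagTTTGAAttag
PLK1 (chr16:23678848-23678877, plus strand): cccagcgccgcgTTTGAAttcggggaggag
KIF11 (chr10:92593090-92593119, plus strand): ctctgtctctttTTCAAAttgaggcgccga
NUSAP1 (chr15:41332882-41332911, plus strand): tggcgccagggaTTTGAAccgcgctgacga
BUB1B (chr15:40161034-40161063, plus strand): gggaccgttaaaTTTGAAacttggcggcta
CDK1 (chr10:60778158-60778187, plus strand): gagtataataaaTTTGAActgtgccaatgc

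Most of the 48 genes were under the threshold. CCNE2, CDK2, GMNN, TTK and NUSAP1 were higher in CARM1 KO cells, and CENPF, CDC25A, PLK1, CCNB1, KIF11 and ORC2 were lower, which left 37 genes that were not called. This is 10.4% higher and 12.5% lower, beside 25.6% and 24.8% of all genes tested. Of protein-coding genes with at least 100 reads, 26.2% were higher and 22.8% lower. Of the 7808 protein-coding genes with at least as many reads as the least covered of the 48, 41.5% were called in either direction, beside 22.9% of the 48. The median size of the difference, in either direction, was 1.26-fold over the 48 genes, 1.64-fold over all genes tested and 1.39-fold over those 7808 genes. A total of 23 of the 48 genes (47.9%) were within 1.25-fold in either direction, beside 25.6% of all genes tested and 35.9% of those 7808 genes. The median log2 fold change was -0.04 over the 48 genes and -0.03 over all genes tested. These shares and medians are descriptions, and no test of the list against other genes was made.

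**Figure D1:**
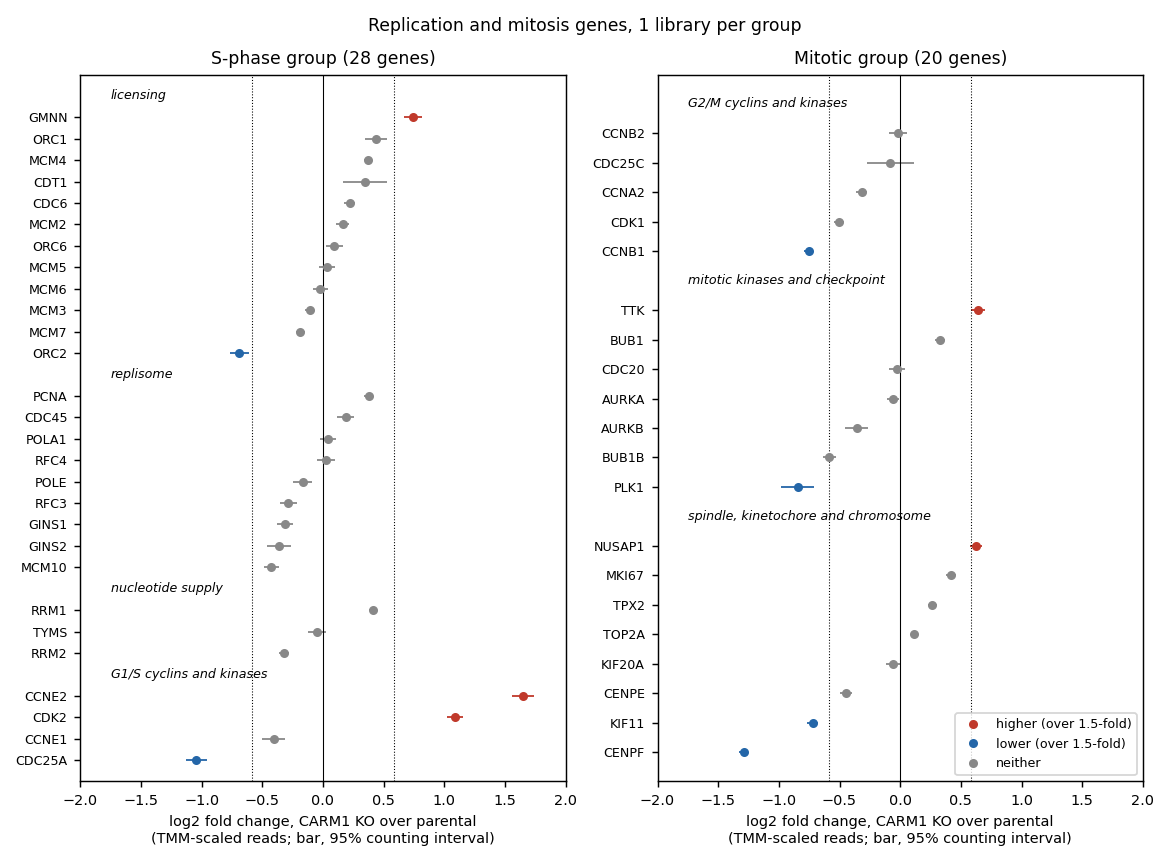
Log2 fold change (x axis, CARM1 KO over parental, TMM-scaled reads) of each of the 48 genes, by role, in the S-phase group (left) and the mitotic group (right). Bars are 95% counting intervals, dotted lines mark 1.5-fold, and points past them, coloured, are the 5 genes that were higher and the 6 that were lower, from CCNE2 at 1.65 to CENPF at -1.29.

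**Figure D2:**
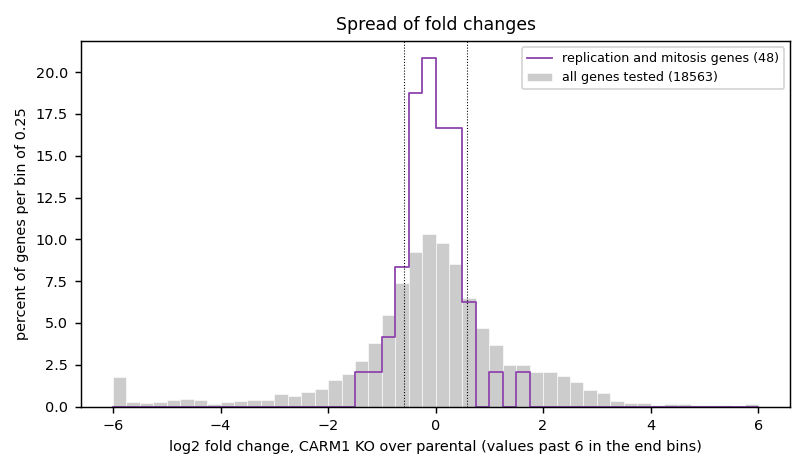
Percent of genes (y axis) in bins of log2 fold change (x axis, CARM1 KO over parental) for all 18563 genes tested (grey bars) and for the 48 replication and mitosis genes (purple line). The interquartile range of log2 fold changes was 0.64 for the 48 genes and 1.42 for all genes tested. It was 0.95 for the 7808 protein-coding genes with at least as many reads as the least covered of the 48, which are not drawn.

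Larger thresholds left few of the 48 genes. Over 2-fold, CCNE2 and CDK2 were higher and CDC25A and CENPF lower, beside 18.3% of all genes higher and 17.1% lower. Over 3-fold, the fold named in the methods of the study, CCNE2 alone was higher and no gene was lower, beside 12.4% and 11.2% of all genes. The study also required an FDR under 0.05 from edgeR, in place of which the counting interval was used here. As no spread between replicates could be estimated, edgeR's exact test was also run with assumed coefficients of variation, at an FDR under 0.05 and over 1.5-fold. It compares these libraries and not the conditions. At a coefficient of 0.12 the same 11 genes passed, 5 higher and 6 lower, beside 23.6% and 22.3% of all genes. At 0.2 the 4 genes over 2-fold passed, beside 15.5% of all genes higher and 13.9% lower. At 0.4 none of the 48 passed, beside 2.93% of all genes higher and 4.78% lower.

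In the S-phase group 3 of 28 genes were higher and 2 were lower, and its median log2 fold change was 0.03 (-0.01 with library size only or with TMM over protein-coding genes). Its genes took 4642 RPM in parental and 5024 in CARM1 KO cells in sum. In the mitotic group 2 of 20 genes were higher and 4 were lower, with a median of -0.07. The share called was 17.9% in the S-phase group and 30% in the mitotic group. It was 50.3% of all genes tested and 41.5% of the 7808 genes described above. In the mitotic group 14 of the 20 values were below 0, beside 9482 of the 18563 genes tested. That count depends on the scaling, since CCNB2 and CDC20 had ratios of 1.01 and 1.004 with DESeq2 size factors. The mitotic genes took 5456 RPM in parental and 4772 in CARM1 KO cells. The largest falls in reads were those of CENPF, from 23008 to 9633, and CCNB1, from 16026 to 9729. The 70 other mitotic genes described below took 8326 RPM in parental and 9214 in CARM1 KO cells, and 40 of their values were above 0. RNA was taken from whole cultures, so fewer cells in a phase and less RNA per cell cannot be told apart.

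**Figure D3:**
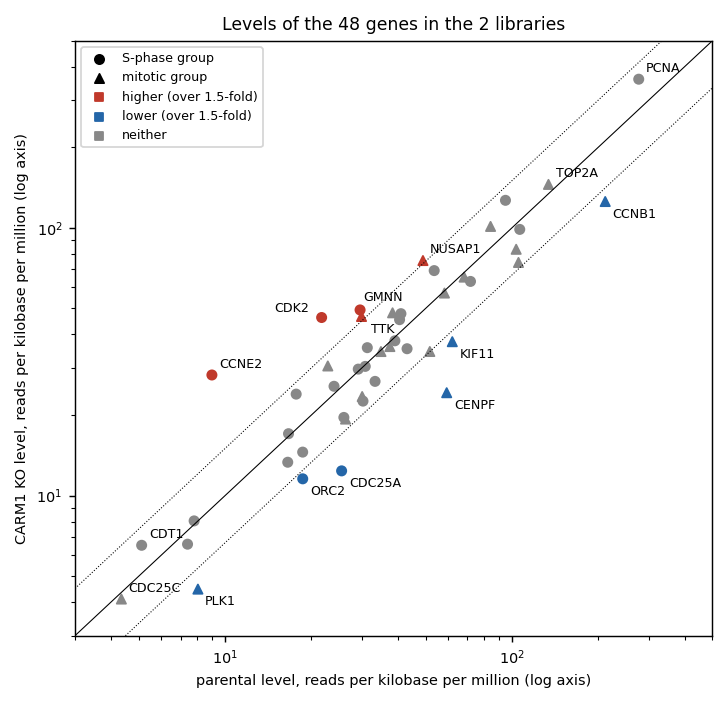
Level of each of the 48 genes in parental (x axis) and CARM1 KO cells (y axis), in RPKM on log axes. The solid line marks equal levels and the dotted lines 1.5-fold, with PCNA highest at 277 and 359 and CDC25C lowest at 4.35 and 4.11.

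Of the 12 licensing genes, GMNN was higher, ORC2 was lower and 10 were not called. The share called was 16.7%, beside 50.3% of all genes tested. The list holds genes of ORC, the MCM2 to MCM7 ring, the loaders CDC6 and CDT1, and geminin (GMNN), the CDT1 inhibitor. None of the 6 helicase subunits was called. MCM4 had 16441 and 21754 reads, a ratio of 1.29 (1.27 to 1.32). MCM7 had 11078 and 9978 reads, a ratio of 0.880 (0.856 to 0.904). These were the outermost of the ring, whose log2 fold changes spanned -0.18 to 0.37 around a median of 0.01. MCM2 had 5959 and 6827 reads. MCM3 had 12089 and 11470 reads. MCM5, with 3767 and 3947 reads, and MCM6, with 3968 and 4006 reads, had intervals that included equal levels. Levels per kilobase of exon (RPKM, for reads per kilobase relative to the size of the scaled library) ranged from 16.6 for MCM5 to 106 for MCM3 in parental cells, and MCM5 and MCM3 were again lowest and highest in CARM1 KO cells, at 17.0 and 98.7.

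Of the 3 subunits of ORC, which marks the origins, ORC2 alone was called. ORC2 (ENSG00000115942, chromosome 2 of GRCh37, 201773700 to 201828403, minus strand) had 3387 and 2148 reads and was 1.61-fold lower (1.53 to 1.70). ORC1 had 1720 and 2382 reads, a ratio of 1.35 (1.27 to 1.44). ORC6 had 3218 and 3518 reads, a ratio of 1.07 (1.02 to 1.12).

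GMNN (ENSG00000112312, chromosome 6, 24775159 to 24786327, plus strand) was the only licensing gene that was higher. Its 2279 and 3898 reads gave a 1.67-fold difference (1.59 to 1.76). Its target CDT1 had the second fewest reads of the 48 genes, 440 and 574, at a ratio of 1.27 (1.12 to 1.45). Per kilobase, geminin exceeded CDT1 5.77-fold in parental and 7.57-fold in CARM1 KO cells. CDC6, the other loader, had 6786 and 8097 reads and was not called.

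None of the 9 replisome genes was called, beside 50.3% of all genes tested. PCNA, the sliding clamp, had the highest level per kilobase of the 48 genes in both libraries, at 277 in parental and 359 in CARM1 KO cells. Its 12093 and 16067 reads gave a ratio of 1.30 (1.27 to 1.33). RFC3 and RFC4, parts of the clamp loader, had 3836 and 3223 reads and 2719 and 2836 reads. The interval of RFC4 included equal levels and that of RFC3 did not. Among the genes that activate the helicase, MCM10 had 5141 and 3921 reads, a ratio of 0.745 (0.714 to 0.777). GINS1 had 4129 and 3406 reads, and GINS2 had 1869 and 1492 reads. CDC45, their partner, had 2905 and 3389 reads. The partners of the active helicase therefore had values on both sides of equality, all under 1.5-fold. The catalytic subunits of the initiating polymerase alpha, POLA1, and of the leading-strand polymerase epsilon, POLE, had 3777 and 3988 reads and 2849 and 2596 reads.

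The nucleotide supply genes were not called either. The ribonucleotide reductase subunits RRM1 and RRM2, which make deoxyribonucleotides, had values on opposite sides of equality. RRM1 had 12519 and 17105 reads, a ratio of 1.33 (1.30 to 1.37). RRM2 had 9502 and 7794 reads, a ratio of 0.801 (0.777 to 0.826). Per kilobase of annotated exon, with 9153 bases for RRM2 and 4233 for RRM1, the ratio of RRM2 to RRM1 was 0.351 in parental and 0.211 in CARM1 KO cells. The ratio within a library depends on these lengths, and its change between the libraries does not. TYMS, thymidylate synthase, had 2947 and 2923 reads, with an interval that included equal levels, while ENOSF1, which overlaps it on the opposite strand, had 950 and 12 reads.

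Among the roles of the 48 genes, the cyclins and kinases of G1/S had the highest share called, 3 of 4 genes. Of all genes tested 50.3% were called, and 4 genes are too few to set against that share. CCNE2, the second E-type cyclin (ENSG00000175305, chromosome 8, 95891998 to 95908906, minus strand), had 1232 and 3956 reads. It was 3.14-fold higher (2.94 to 3.35), the largest difference of the 48 genes. CCNE1, the first E-type cyclin, had 1989 and 1537 reads, a ratio of 0.755 (0.706 to 0.807). The order of the cyclin E genes was therefore turned. Per kilobase, CCNE1 stood at 2.88 times CCNE2 in parental cells and at 0.694 times CCNE2 in CARM1 KO cells. Together they took 103 RPM in parental and 172 in CARM1 KO cells. INTS8 and NDUFAF6 overlap CCNE2 on the opposite strand and had 3166 and 3552 reads and 691 and 813 reads, and neither passed the threshold.

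CDK2, the kinase bound by cyclin E (ENSG00000123374, chromosome 12, 56360565 to 56366573, plus strand), had 2628 and 5733 reads. It was 2.13-fold higher (2.03 to 2.23). CDC25A, the phosphatase that removes inhibitory phosphates from CDK2 (ENSG00000164045, chromosome 3, 48198636 to 48229907, minus strand), had 3290 and 1635 reads. It was 2.06-fold lower (1.94 to 2.19). The kinase and its activating phosphatase were thus called in opposite directions. The ratio of CDK2 to CDK1 per kilobase was 0.206 in parental and 0.623 in CARM1 KO cells.

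All 5 genes of the G2/M cyclins and kinases had log2 fold changes below 0 with TMM scaling, though CCNB2 had a ratio of 1.01 with DESeq2 size factors. Only 1 (20%) passed the threshold, beside 50.3% of all genes tested. CCNB1, the main mitotic cyclin (ENSG00000134057, chromosome 5, 68462962 to 68474072, plus strand), had 16026 and 9729 reads and was 1.69-fold lower (1.64 to 1.73). It had the second highest level per kilobase of the 48 genes in parental cells, at 212, and the fourth highest in CARM1 KO cells, at 125. Its partner kinase CDK1 had 12834 and 9255 reads, a ratio of 0.704 (0.686 to 0.723). CCNA2, the cyclin of S and G2 phase, had 8856 and 7287 reads. CCNB2 had 2997 and 3030 reads and CDC25C, a phosphatase that activates CDK1, had 451 and 436 reads, and both intervals included equal levels. Per kilobase the ratio of CCNB1 to CCNB2 was 6.05 in parental and 3.63 in CARM1 KO cells. In sum these 5 genes took 1322 RPM in parental and 933 in CARM1 KO cells, the widest gap between the sums of a mitotic role.

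Of the 7 mitotic kinases and checkpoint genes, PLK1 was lower and TTK was higher. The share called was 28.6%, beside 50.3% of all genes tested. PLK1, the Polo kinase of mitotic entry (ENSG00000166851, chromosome 16, 23688977 to 23701688, plus strand), had 1192 and 679 reads and a 1.8-fold lower level (1.63 to 1.98). TTK, the kinase at the top of the spindle checkpoint (ENSG00000112742, chromosome 6, 80713604 to 80752244, plus strand), had 4264 and 6813 reads, a 1.56-fold higher level (1.5 to 1.62). The checkpoint genes BUB1 and BUB1B had values on opposite sides of equality. BUB1 had 7532 and 9680 reads, a ratio of 1.26 (1.22 to 1.29). BUB1B had 7191 and 4914 reads, a ratio of 0.667 (0.644 to 0.692) that fell just short of the threshold and was called with 2 of the other scalings. CDC20, the activator of the anaphase-promoting complex, had 3646 and 3662 reads, with an interval that included equal levels. Of the Aurora kinases, AURKA had 6214 and 6112 reads and AURKB, part of the chromosomal passenger complex, 2098 and 1675 reads, neither of which was called.

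Among the 8 spindle, kinetochore and chromosome genes, CENPF and KIF11 were lower and NUSAP1 was higher. The share called was 37.5%, beside 50.3% of all genes tested. CENPF, a large kinetochore protein (ENSG00000117724, chromosome 1, 214776528 to 214837917, plus strand), had 23008 and 9633 reads. It was 2.45-fold lower (2.39 to 2.5), and its place by level per kilobase went from 12 to 33 of the 48 genes. KIF11, the kinesin that pushes spindle poles apart (ENSG00000138160, chromosome 10, 94333862 to 94415152, plus strand), had 10271 and 6375 reads and was 1.65-fold lower (1.6 to 1.70). NUSAP1, which bundles spindle microtubules (ENSG00000137804, chromosome 15, 41612992 to 41673248, plus strand), had 5502 and 8685 reads and was 1.54-fold higher (1.49 to 1.59), a call that was lost, at 1.49-fold, with TMM over protein-coding genes. OIP5-AS1, which overlaps NUSAP1 on the same strand, had 4436 and 2786 reads.

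The remaining genes of this role were not called. CENPE, the kinetochore motor, had 8132 and 6113 reads, a ratio of 0.734 (0.710 to 0.759). MKI67, the gene of the proliferation antigen Ki-67, had 9126 and 12488 reads, a ratio of 1.34 (1.30 to 1.37). TOP2A, the topoisomerase that untangles chromosomes, was the gene with most reads of the 48 in both libraries, 26623 and 29532, a ratio of 1.08 (1.07 to 1.10). TPX2, an activator of AURKA, had 9459 and 11636 reads, and KIF20A, a motor of cell separation, had 4504 and 4425 reads. MKI67, TOP2A and PCNA, which are in common use as markers of dividing cells, thus had ratios above 1 and under 1.5. Other genes of dividing cells went the other way. CCNB1 and PLK1 were lower, and CDK1, AURKB and CCNA2, not called, had ratios of 0.704, 0.780 and 0.804. The study reported that CARM1 KO cells grew less than parental cells, and the relation of these values to growth was not tested.

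Within each group the called genes were found both with and without the promoter word. For comparison, 50.3% of all genes tested were called in either direction. Of the 15 S-phase genes with an E2F word, 1 was higher and 1 lower, with a median log2 fold change of -0.05. Of the 9 without it that had a window, none was higher and 1 was lower, with a median of 0.03. Of the 12 mitotic genes with a CHR word, 1 was higher and 3 were lower, with values from -1.29 to 0.62. Of the 5 without it that had a window, CCNB1 was lower and the values ranged from -0.75 to -0.06. CCNE2, CDK2 and TTK, which were higher, had no window and so are in neither set of their group. MCM4, MCM5, AURKA and TPX2, which were not called, had none either.

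The same roles were followed in genes outside the 48, from lists of known members. Of 47 other replication genes, 46 could be tested, and 10 were higher and 7 lower, with a median log2 fold change of 0.23. The share called was 37.0%, beside 50.3% of all genes tested. UHRF1 was not matched to an identifier of the table. MTBP, which helps origins fire, had 1206 and 2975 reads, a 2.41-fold higher level (2.25 to 2.58). RFC2, a clamp loader subunit like RFC3 and RFC4, had 2253 and 4958 reads and was 2.15-fold higher (2.04 to 2.26). The largest falls were those of ORC5, a further ORC subunit, with 1370 and 443 reads, a 3.17-fold lower level (2.84 to 3.53), and RRM2B, the stress-inducible reductase subunit, with 2426 and 970 reads, a 2.56-fold lower level (2.38 to 2.76). The ORC and clamp loader genes thus held subunits past the threshold beside subunits that were not.

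Of 70 other mitotic genes 6 were higher and 7 lower, with a median log2 fold change of 0.09, and 39 were within 1.25-fold. The share called was 18.6%, beside 50.3% of all genes tested. ANLN, a scaffold of the cleavage furrow, had 12816 and 28833 reads and was 2.20-fold higher (2.15 to 2.24). DSN1, a kinetochore subunit, had 1380 and 2572 reads and was 1.82-fold higher (1.70 to 1.94). Its partner in the same complex, NSL1, had 1801 and 609 reads and was 3.03-fold lower (2.76 to 3.32). NEK2, a kinase of centrosome separation, had 2127 and 1025 reads and was 2.12-fold lower (1.97 to 2.29). The CHR word was in 62.3% of the 69 windows of these genes and the E2F word in 7.25%, while the other replication genes had them in 5.56% and 27.8% of 54 windows. CCAAT was in 66.7% of the windows of the other mitotic genes. It was in 38.9% of those of the other replication genes, near the 35.0% of protein-coding genes with at least 100 reads. The high share of CCAAT in the S-phase group was therefore not seen in the other replication genes.

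Of 20 regulators of the E2F, RB and DREAM families 4 were higher and 3 lower, with a median log2 fold change of 0.14. The share called was 35%, beside 50.3% of all genes tested. RB1, the retinoblastoma protein that holds E2F factors in check, had 1512 and 475 reads, a 3.26-fold lower level (2.94 to 3.62). E2F5, a repressor of the family, had 1701 and 247 reads and was 7.05-fold lower (6.17 to 8.09). E2F1, an activator, had 342 and 587 reads and was 1.68-fold higher (1.46 to 1.92). E2F2, another activator, had 422 and 244 reads and was 1.77-fold lower (1.51 to 2.08). E2F7, another repressor, was 1.83-fold higher (1.68 to 2.01), with 756 and 1419 reads. Activators and repressors of the family were thus each called in both directions. LIN37, a DREAM subunit, had 42 and 98 reads and was 2.28-fold higher (1.57 to 3.35). RBL1, a pocket protein found in DREAM, had 2087 and 3348 reads and was 1.57-fold higher (1.48 to 1.66). Of the factors known for the mitotic genes, FOXM1 and MYBL2 were not called, with 1346 and 1664 reads for FOXM1 and 2169 and 2237 reads for MYBL2. Of the CIP/KIP inhibitors of CDK2, CDKN1A had 833 and 357 reads and was 2.39-fold lower (2.11 to 2.71), and CDKN1B had 1880 and 1568 reads and was not called. CDKN1C had 27 and 58 reads and was higher.

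**Figure D4:**
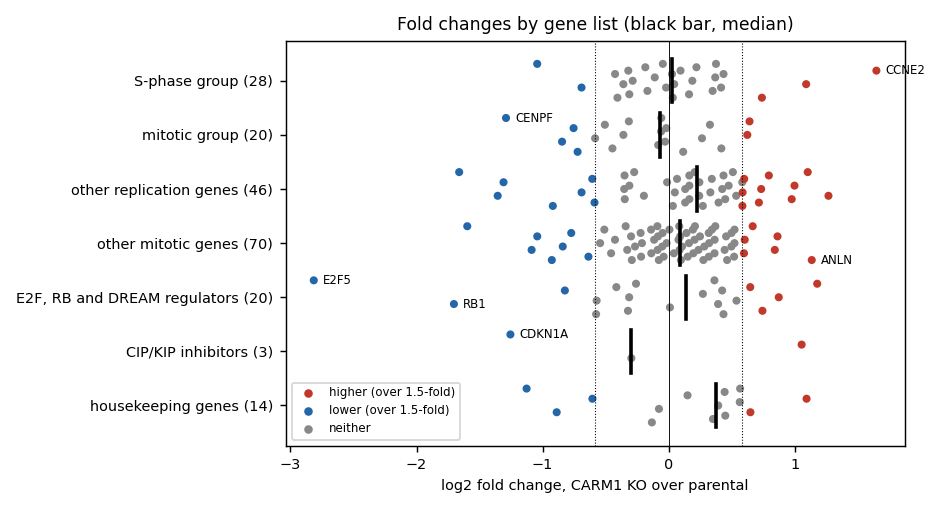
Log2 fold change (x axis, CARM1 KO over parental) of each gene of the S-phase and mitotic groups and of the other lists, with a black bar at the median and dotted lines at 1.5-fold. The medians lie between -0.30 for the CIP/KIP inhibitors and 0.37 for the housekeeping genes, and E2F5 at -2.82 lies farthest from 0.

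Reads of overlapping genes limit some of these values, since use of strand in the counting is not given in the sources used here. Of the 48 genes, 25 overlap another gene of the table, and for 10 of them such a gene had at least 5% of their own reads. Besides CCNE2, NUSAP1 and TYMS, these were 7 genes that were not called, each overlapped on the opposite strand. EIF4A2, which overlaps RFC4, had 19056 and 27591 reads, and FAM53C, which overlaps CDC25C, had 1899 and 1575 reads. Both thus had more reads than the gene they overlap. EXOSC9, at CCNA2, had 5423 and 6272 reads. At KIF20A, CDC23 had 3010 and 2404 reads and BRD8 had 2108 and 2144 reads. GSE1, at GINS2, had 840 and 308 reads. NINL, at GINS1, had 495 and 418 reads, and the pseudogene EEF1B2P3, at POLA1, had 567 and 331 reads. The part of overlapping genes in these values was not tested.

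The scaling had no outside reference. Of 14 housekeeping genes 2 were higher and 3 lower, and their median log2 fold change was 0.37. The share called was 35.7%, beside 50.3% of all genes tested. TFRC was lower, with 8152 and 3822 reads, and RPLP0 was higher, with 26542 and 42616 reads. No scaling to these genes was run.

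Genes near each of the 48 were compared with it, to describe how far its difference was shared by its stretch of chromosome. For each, the nearest 5 protein-coding genes with at least 100 reads on either side were taken (8 in all for TYMS, at the end of its chromosome). All 10 neighbours of CENPF had log2 fold changes below 0, with a median of -1.48 beside -1.29 for CENPF. The neighbours of GMNN had a median of 0.93 beside 0.74 for GMNN, and 8 of 10 were above 0. Those of PLK1 had a median of -0.69 beside -0.85, and 9 of 10 were below 0. The median of the neighbours had the same sign as the gene for 8 of the 11 called genes and for 24 of all 48.

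KIF11, CCNB1 and CDK2 went the same way as most of their neighbours. KIF11, at -0.72, had a neighbour median of -0.46, and 8 of 10 neighbours were below 0. CCNB1, at -0.75, had a median of -0.32, and 7 of 10 were below 0. CDK2, at 1.09, had a median of 0.50, and 7 of 10 were above 0.

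Other called genes had values farther from those of their neighbours or opposite in sign. CCNE2, at 1.65, lay among neighbours with a median of 0.17, and TTK, at 0.64, among neighbours with a median of 0.02. CDC25A, at -1.04, had neighbours with a median of 0.45, of which 9 of 10 were above 0. ORC2 and NUSAP1 were also opposite in sign to the median of their neighbours, which was 0.12 and -0.19. Over the 48 genes, the correlation of a gene's log2 fold change with the median of its neighbours was 0.38 (Pearson's r) and 0.27 (Spearman's rho), given as a description, since all values come from the same 2 libraries and some genes share neighbours. The part of position in these differences was not tested.

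**Figure D5:**
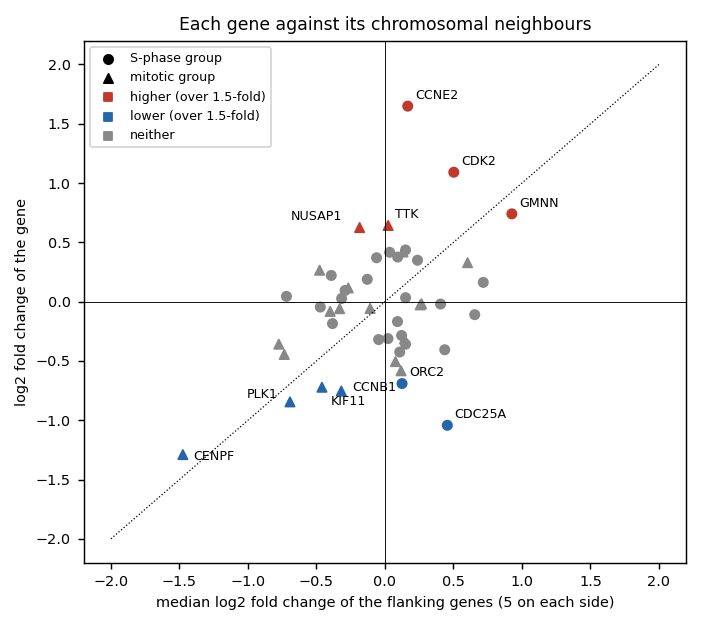
Log2 fold change of each of the 48 genes (y axis) against the median log2 fold change of its flanking protein-coding genes (x axis), with circles for the S-phase group and triangles for the mitotic group. CENPF (-1.29 beside -1.48) and GMNN (0.74 beside 0.93) lie near the dotted line of equal values, while CCNE2 (1.65 beside 0.17) and CDC25A (-1.04 beside 0.45) lie far from it.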

How the data were processed

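RNA-Seq libraries of parental and CARM1 KO A1847 cells (1 each) were made with the ScriptSeq complete Gold kit and sequenced as paired ends. Alignment (bowtie2, hg19) and estimation of reads for every Ensembl gene (RSEM) were done by the authors, who deposited raw counts as whole numbers. Reads that fit several genes are shared out by RSEM, and use of strand is not given in the sources used here. Overlapping genes are therefore uncertain. Symbols came from GENCODE 44 lifted to GRCh37, which held 55501 of 57736 identifiers.

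From the counts, edgeR 4.0.16 (R 4.3.3) gave TMM scaling, and scipy 1.17.1 gave exact 95% binomial intervals of the ratio of reads, over the 18563 genes whose reads summed to at least 10. Folds are ratios of scaled reads. Log2 fold changes used a prior count of 0.5 reads. Levels per kilobase used the union of annotated exons. That union can be longer than the transcripts present, so levels of different genes are only roughly comparable. The quasi-likelihood test of edgeR could not be fitted, for want of replicates. edgeR's exact test with assumed coefficients of variation of 0.12, 0.2 and 0.4 was an alternative. The others were library size, DESeq2 1.42.0 size factors, upper-quartile scaling, TMM over protein-coding genes, minimums of 1 and 100 reads, a prior count of 2, and 2-fold and 3-fold thresholds. The steps were tested on simulated counts.

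The 48 genes, the gene lists and the tests were chosen with earlier results of these data known. Named were all 48 genes, from each further pathway list the largest 2 rises and 2 falls with at least 100 reads, FOXM1, MYBL2, E2F1, RB1 and CDKN1A, and CARM1. Overlapping genes, the single marker genes, E2F2, RBL1 and CDKN1C were named after their values were seen. For 2 housekeeping genes covered by the rule, results are not reported here.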

Additional observations from a re-analysis of the deposited data

How the results depend on the processing

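The counts of 5 higher and 6 lower genes depended on the call rule. With a 2-fold threshold, and with edgeR's exact test at an assumed coefficient of variation of 0.2, they were 2 and 2. With a 3-fold threshold they were 1 and 0, and at a coefficient of 0.4 they were 0 and 0, which follows from the stricter rules. Under the other scalings and minimums of reads, 4 or 5 genes were higher and 6 or 7 lower, and the median log2 fold change lay between -0.01 and 0.06 in the S-phase group and between -0.12 and -0.04 in the mitotic group, so the sign of the first depends on the scaling. Of 288 comparisons of single genes, 285 kept their call. NUSAP1 lost its call with TMM over protein-coding genes (1.49-fold), and BUB1B gained one there (0.647) and with library size only (0.650, as CARM1 KO over parental). No paired analysis was possible because each group has a single library, for which reason none could be left out either. Depth limited CDT1 and CDC25C most.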
